A study of Mus musculus with 6 samples.

Results

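The genes described here are 9 members of the Wnt pathway, taken from a table of 12826 genes by matching their symbols exactly. They are the ligand Wnt3 and the agonist Rspo3, the targets Sp5, Sp8, Axin2 and Lef1, and the general transducers Ctnnb1, Lrp6 and Tcf7l1. All 9 were in the table and all 9 passed the filter on low values, which kept 10914 genes whose mean reached 1 FPKM (fragments per kilobase of a transcript, relative to the number of mapped fragments). The members were proposed with earlier results of the same 6 libraries in view, among them the difference between posterior and anterior pieces. That difference is therefore given for them as a description, with no test, and it supports nothing further.

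RNA was sequenced from ETX-embryos, which are embryo-like structures assembled in culture from mouse embryonic stem cells, trophoblast stem cells and extraembryonic endoderm (XEN) cells. The embryonic stem cells carried a GFP reporter under the T (Brachyury) promoter, and the labels name no treatment. The trophoblast compartment was removed and the embryonic stem cell compartment of each structure was split along its length, so that the GFP-positive piece became the prospective posterior library and the GFP-negative piece the prospective anterior library. Both pieces of 3 individual structures, called embryos A, B and C, gave 3 anterior and 3 posterior Smart-seq2 libraries. All 6 libraries share the reporter line, the culture in aggregation plates and the sequence of embryo culture media. The reporter shows where the T promoter was active at dissection and does not itself mark a cell type, and the labels do not say that extraembryonic endoderm cells were removed from either piece.

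Wnt proteins bind Frizzled receptors together with the co-receptors Lrp5 and Lrp6. Binding stops the complex that holds the scaffold Axin and the kinase Gsk3 from marking beta-catenin for destruction, and beta-catenin then enters the nucleus, where it acts with DNA-binding proteins of the TCF and LEF family. In the mouse embryo Wnt3 is needed for the primitive streak, the posterior structure through which cells leave the epiblast at gastrulation.

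The libraries held between 9335 and 12141 genes above 0. Relative depth, read from the whole-read steps of low FPKM values and set to 1 in anterior A, was 1.41 and 1.42 in anterior B and C, while posterior A, B and C had 2.20, 2.82 and 1.55. Absolute depth is unknown. A gene at 0 is described only as listed at 0. T itself ran with the labels in embryos A and B, where the anterior libraries listed it at 0 and the posterior ones gave 5.03 FPKM (A) and 15.6 FPKM (B). Embryo C ran against them: the library labelled anterior C gave 42.5 FPKM and its posterior counterpart listed T at 0. Each direction that includes embryo C rests on labels that T contradicts there, so the members' mean differences and the list counts are also given without embryo C. The other streak markers of embryo C, given below, ran with the labels, except Gsc, which was at 0 in both pieces. Anterior and posterior name the labels throughout.

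Promoter sequence is shown for Sp5 and Axin2, targets that every anterior library listed at 0, and for the ligand Wnt3, because the LEF and TCF proteins named above bind a short DNA word. The word searched was CTTTG followed by a pair of A or T bases, on both strands, in the 250 bases before each annotated start in RefSeq (build GRCm38.p6). It occurred in 14.8% of 32851 such windows, and 2 or more copies occurred in 1.43%. Of the 9 members, 7 had an entry. The Sp5 window (chr2:70474673-70474922, plus strand), upstream of a gene for a zinc finger factor induced by Wnt, held 2 copies. The Axin2 window (chr11:108920099-108920348, plus strand) and the Wnt3 window (chr11:103773925-103774174, plus strand) held none. The windows read as follows, 5′ to 3′, with copies of the word in capitals.
Sp5: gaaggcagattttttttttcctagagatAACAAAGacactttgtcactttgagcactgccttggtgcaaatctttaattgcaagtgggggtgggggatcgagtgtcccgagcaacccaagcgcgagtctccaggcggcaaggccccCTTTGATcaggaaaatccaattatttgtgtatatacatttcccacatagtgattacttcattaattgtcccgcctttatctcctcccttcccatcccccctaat
Axin2: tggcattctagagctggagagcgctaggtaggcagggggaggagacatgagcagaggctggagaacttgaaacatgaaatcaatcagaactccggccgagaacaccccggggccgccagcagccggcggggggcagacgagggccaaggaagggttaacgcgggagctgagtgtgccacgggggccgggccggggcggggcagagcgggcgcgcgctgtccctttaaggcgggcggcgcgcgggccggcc
Wnt3: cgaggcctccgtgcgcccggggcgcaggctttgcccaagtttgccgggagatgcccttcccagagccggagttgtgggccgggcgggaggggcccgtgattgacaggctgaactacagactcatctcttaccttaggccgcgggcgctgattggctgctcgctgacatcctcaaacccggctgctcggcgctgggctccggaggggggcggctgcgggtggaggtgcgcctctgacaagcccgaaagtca
In Sp5 the copies start 222 and 104 bases before the annotated start, the first on the opposite strand and the second on the gene's own strand. The 5-base core CTTTG, counted on both strands, occurred 4 times in the Sp5 window, a count reached or passed by 0.773% of windows. Among the other members, 1 of 3 Sp8 windows and 1 of 4 Lef1 windows held 1 copy each, at 51 and 147 bases before the start used for that window. Both Ctnnb1 windows and the Tcf7l1 window held none. A match is a match of letters and shows no binding, and its lack says only that these letters are not in the window.

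Wnt3 and Rspo3, the secreted activators of the pathway, lay higher in all 3 posterior libraries than in all 3 anterior ones, a layout held by 12.3% of the 10914 tested genes. Wnt3 (chr11:103774150-103817957, plus strand, all gene positions from GENCODE M21 on GRCm38) was listed at 0 in anterior A and measured 3.38 and 0.896 FPKM in anterior B and C. Its posterior values were 114, 53.4 and 70.1 FPKM in embryos A, B and C. The lowest posterior value of Wnt3 was thus well above the highest anterior one, and the anterior reading came mostly from embryo B. On the log2(FPKM + 1) scale the 3 posterior values averaged 6.25 ± 0.55 (SD, n = 3), and the posterior library was higher by 6.84, 3.63 and 5.23 in embryos A, B and C. Without embryo C the mean difference was 5.24, against 5.23 with it.

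Rspo3 (chr10:29452416-29535867, minus strand), a secreted protein that keeps Wnt receptors at the cell surface by blocking their turnover, was listed at 0 in all 3 anterior libraries. Its posterior values were 2.53, 14.9 and 100.7 FPKM in embryos A, B and C. The posterior libraries therefore differed widely among themselves for Rspo3, while Wnt3 in the same 3 libraries stayed within 53.4 to 114 FPKM. The mean difference of Rspo3 was 4.16 in log2(FPKM + 1), and 2.91 without embryo C. The posterior library with the most Rspo3 was that of embryo C, the embryo in which T ran against its labels. Posterior A held the least Rspo3 and the most Wnt3. An antisense-strand gene, Gm48159, shares 404 exonic bases with Rspo3, and the sources used here do not give whether counting used strand.

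Of the 4 target genes, Sp5, Axin2 and Lef1 separated the domains without overlap and Sp8 did not. Sp5 (chr2:70474923-70477729, plus strand) stood at 0 in each anterior library, and its posterior values were 27.5, 14.2 and 29.0 FPKM in embryos A, B and C. Axin2 (chr11:108920349-108950783, plus strand), a scaffold of the destruction complex that Wnt signalling induces as negative feedback, was likewise at 0 in each anterior library, and its posterior values were 15.4, 10.8 and 8.93 FPKM. The posterior values of both lay close together: on the log2(FPKM + 1) scale Sp5 stood at 4.55 ± 0.55 and Axin2 at 3.63 ± 0.37 (SD, n = 3). Without embryo C these values were 4.38 for Sp5 and 3.79 for Axin2. Gm11670 shares 209 exonic bases with Axin2 on the other strand.

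Lef1 (chr3:131110471-131224356, plus strand), a DNA-binding partner of beta-catenin that is itself a target, was above 0 in every library. Its values in embryos A, B and C were 2.11, 2.39 and 0.277 FPKM (anterior) and 17.7, 11.2 and 21.0 FPKM (posterior). All posterior values of Lef1 exceeded all anterior ones, and embryo C held both its lowest and its highest value. On the log2(FPKM + 1) scale the means were 1.25 ± 0.78 in the anterior and 4.10 ± 0.44 in the posterior libraries (SD, n = 3 each), a mean difference of 2.85 ± 1.15 over 3 embryos that was 2.22 without embryo C. Gm43352 shares 1208 exonic bases with Lef1 on the other strand.

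Sp8 (chr12:118846329-118852576, plus strand), a zinc finger factor of the same family as Sp5, had high levels in both domains. Its values in embryos A, B and C were 14.7, 22.0 and 99.3 FPKM (anterior) and 179, 94.5 and 99.8 FPKM (posterior). The posterior library was higher by 3.53 in embryo A and by 2.05 in embryo B on the log2(FPKM + 1) scale, and in embryo C the difference was 0.0066. Anterior C lay inside the posterior range, so the groups overlapped through that library. The mean difference of Sp8 was 1.86 ± 1.77 (SD, n = 3), against 2.79 without embryo C and 1.03 without embryo A.

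The general transducers were above 0 in every library of both domains, and for Ctnnb1 and Tcf7l1 the sign of the difference varied between embryos. Ctnnb1 (chr9:120929216-120960507, plus strand), the gene of beta-catenin, had values in embryos A, B and C of 39.99, 89.9 and 70.2 FPKM (anterior) and 83.2, 165 and 23.3 FPKM (posterior). The posterior library held more in embryos A and B and less in embryo C, and the anterior values all lay inside the posterior range. The mean difference was 0.12 ± 1.45 (SD, n = 3), and it turned to -0.20 after quantile normalization and to -0.37 after centring each library on its median gene. It was 0.96 without embryo C. Ulk4 shares 759 exonic bases with Ctnnb1 on the other strand and was listed at 0 or low in every library (at most 1.23 in log2(FPKM + 1)).

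Lrp6 (chr6:134446476-134566965, minus strand), the co-receptor, had values in embryos A, B and C of 6.10, 5.45 and 0.388 FPKM (anterior) and 11.6, 6.57 and 24.7 FPKM (posterior). Its groups did not overlap, but by little: the highest anterior value of 6.10 FPKM and the lowest posterior value of 6.57 FPKM were neighbours. After quantile normalization or median centring the groups of Lrp6 overlapped. The mean difference of 1.76 ± 2.15 (SD, n = 3) rested largely on embryo C and was 0.53 without it.

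Tcf7l1 (chr6:72626378-72789254, minus strand), the TCF family member best known as a repressor of Wnt targets in embryonic stem cells, had values in embryos A, B and C of 6.28, 5.59 and 201 FPKM (anterior) and 86.6, 5.39 and 97.3 FPKM (posterior). The libraries fell into a low set with both pieces of embryo B and anterior A, and a high set with both pieces of embryo C and posterior A. The posterior minus anterior difference was 3.59, -0.04 and -1.04 in embryos A, B and C, with a mean of 0.84 ± 2.44 (SD, n = 3), of 1.77 without embryo C and of -0.54 without embryo A. Gm15401, which shares 179 exonic bases with Tcf7l1 on the other strand, stayed between 1.88 and 3.14 in log2(FPKM + 1).

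**Figure D1:**
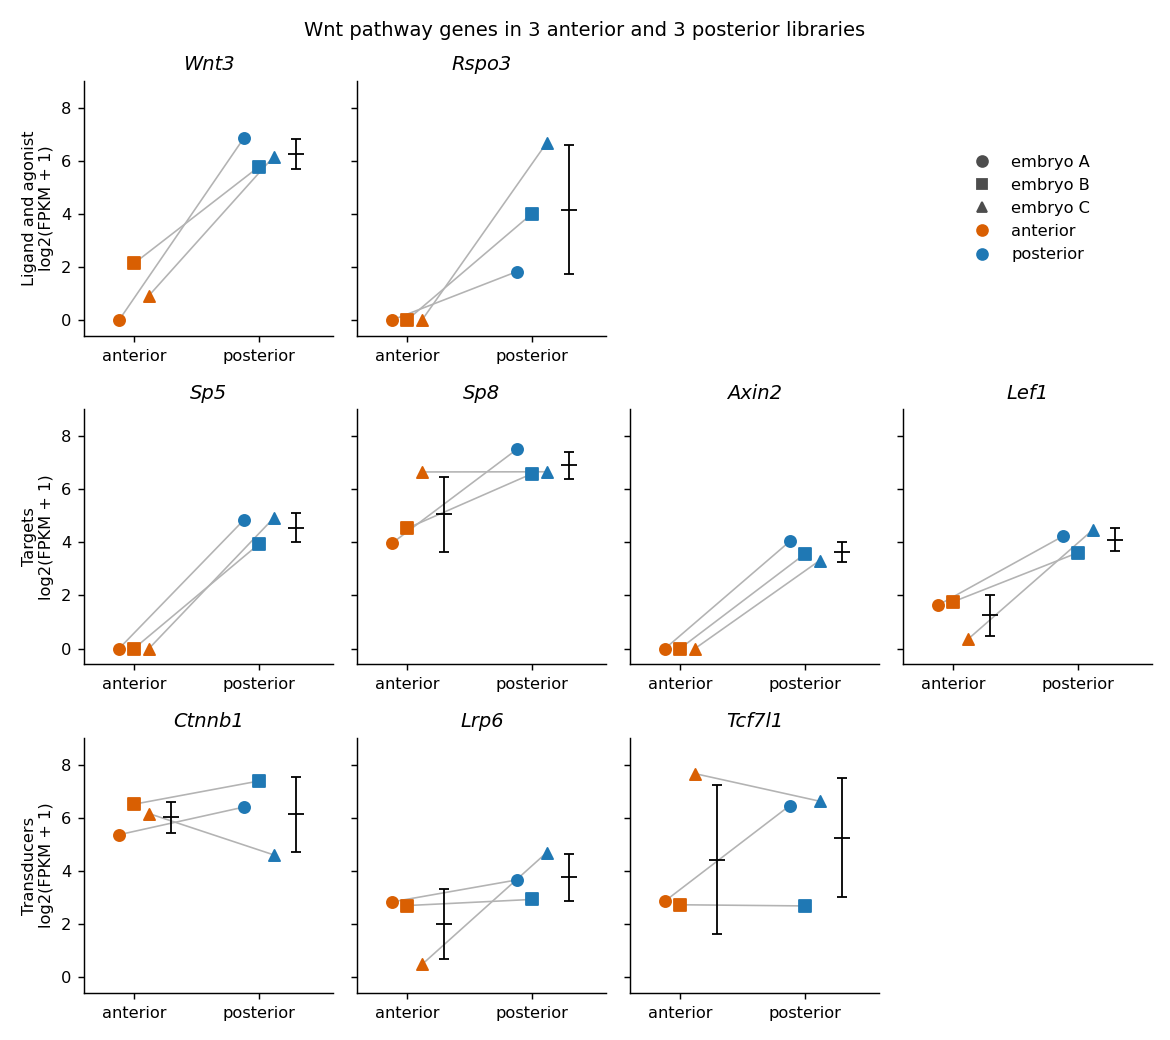
Vertical axis: level of each of the 9 genes in log2(FPKM + 1), for the anterior (orange) and posterior (blue) library of embryos A, B and C, with lines joining the pieces of an embryo and black bars giving the mean ± SD of 3 libraries where none of them is at 0. Rspo3, Sp5 and Axin2 are listed at 0 in all anterior libraries, Sp8 of anterior C lies at the posterior level, and the lines of Ctnnb1 and Tcf7l1 run both up and down.

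Counted by role, 5 of the 6 ligand, agonist and target genes and 1 of the 3 transducers had every posterior value above every anterior value. The share of all 10914 tested genes with that pattern was 12.3%. Without embryo C, 7 of the 9 members had it, against 31.1% of all tested genes. After quantile normalization and after median centring 5 members had it, against 7.49% and 7.14% of all tested genes. The share with every posterior value below every anterior one was 3.77% in the unchanged data, a pattern no member had there. Rspo3, Sp5 and Axin2 were listed at 0 in all anterior libraries and above 0 in all posterior ones, a pattern held by 1.03% of tested genes. These members were chosen with this contrast in view, so nothing is read from the shares. The limma fit of posterior against anterior called 0% of tested genes at an adjusted p under 0.05 (smallest adjusted p 0.211), with 790 genes higher in the posterior libraries and 86 in the anterior ones at an unadjusted p under 0.05. After quantile normalization that unadjusted split was 527 to 276, and after median centring 429 to 297.

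The median posterior minus anterior difference of the 6 ligand, agonist and target genes was 3.90 in log2(FPKM + 1), from 1.86 for Sp8 to 5.23 for Wnt3. By embryo the median was 3.78 in A, 3.59 in B and 4.51 in C, and all 6 genes were higher in the posterior library of every embryo, Sp8 in embryo C by only 0.0066. For a gene at 0 in every anterior library the difference equals its posterior value, and with a pseudocount of 0.1 in place of 1 the median of the 6 was 6.79. It was 3.35 without embryo C, 3.41 after median centring and 3.47 after quantile normalization. The 3 transducers had a median of 0.84, with 1.04, 0.23 and -1.04 in embryos A, B and C, and 3, 2 and 1 of the 3 were higher in the posterior library. Over all tested genes the median was 0.43, with 0.91, 0.02 and 0.17 for the single embryos. Set among the differences of all tested genes, Wnt3 lay at percentile 99.9, Sp5 at 99.8, Rspo3 at 99.6, Axin2 at 99.1 and Lef1 at 96.9. Sp8 and Lrp6 lay at percentiles 88.2 and 86.4, Tcf7l1 at 63.5 and Ctnnb1 at 39.3. With the tested genes ordered by mean level instead, Ctnnb1 and Sp8 lay near percentile 90 (89.98 and 89.5), and Axin2 and Rspo3 at 26.2 and 31.8, with the other 5 members between those ends.

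**Figure D2:**
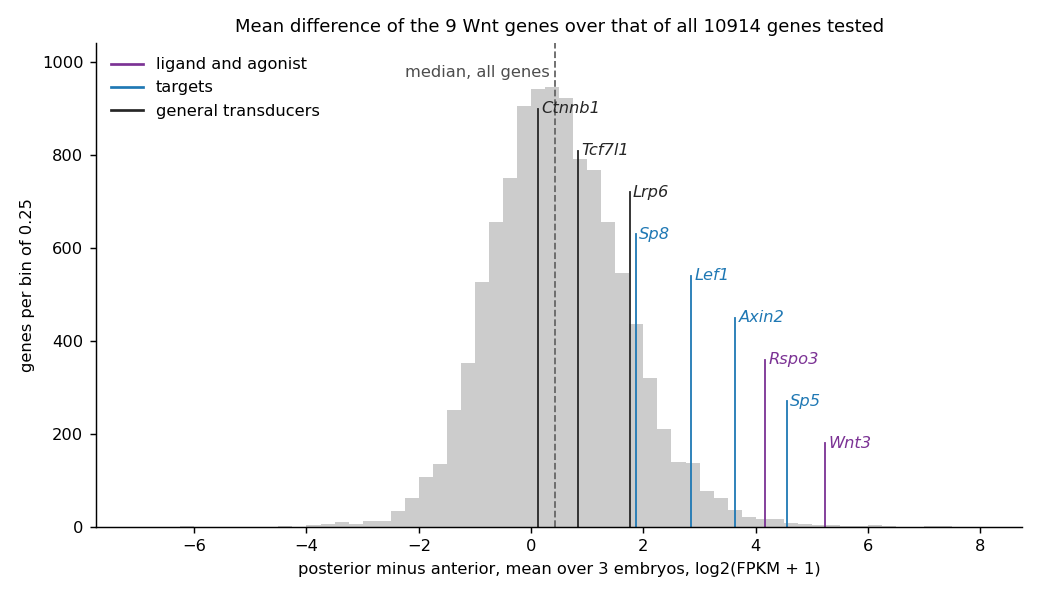
Histogram of the mean posterior minus anterior difference in log2(FPKM + 1) over 3 embryos (horizontal axis) for all 10914 tested genes (vertical axis, genes per bin of 0.25), with a vertical line for each of the 9 genes, whose height has no meaning, coloured by role. The dashed line marks the median of all genes at 0.43, near which Ctnnb1 and Tcf7l1 lie, while Wnt3, at 5.23, lies farthest to the right of the 9.

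The gene with the highest level varied between libraries of the same domain. It was Ctnnb1 in anterior A, anterior B and posterior B, Tcf7l1 in anterior C, Sp8 in posterior A and Rspo3 in posterior C. The orders of mean levels below are therefore a description of each domain. FPKM is scaled to transcript length, so levels of different genes can be set side by side. In the posterior libraries the order of mean levels in log2(FPKM + 1) was Sp8 (6.91 ± 0.51), Wnt3 (6.25 ± 0.55), Ctnnb1 (6.12 ± 1.41), Tcf7l1 (5.25 ± 2.23), Sp5 (4.55 ± 0.55), Rspo3 (4.16 ± 2.43), Lef1 (4.10 ± 0.44), Lrp6 (3.75 ± 0.88) and Axin2 (3.63 ± 0.37), each with SD and n = 3. Of the 8 pairs of neighbours in that order, only Sp8 and Wnt3 were farther apart than the SD of each, and by a small margin (0.66 against 0.51 and 0.55). In the anterior libraries Ctnnb1 (6.01 ± 0.59), Sp8 (5.05 ± 1.41) and Tcf7l1 (4.41 ± 2.81) came first, followed by Lrp6 (1.996 ± 1.32) and Lef1 (1.25 ± 0.78). Wnt3 had individual values of 0, 2.13 and 0.92 there, and the other 3 members were listed at 0. No neighbours in the anterior order were farther apart than the SD of each. The mean levels of the domains were closest for Ctnnb1, then for Tcf7l1, Lrp6 and Sp8.

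Whether a member differed among embryos A, B and C was not used to choose it and could be tested. With limma's F test over the 10914 genes, adjusted p-values of the 9 members lay between 0.996 and 0.998. Before adjustment the F test gave Tcf7l1 a p of 0.0152, the only member under 0.05, and the next smallest was 0.274 for Rspo3. The test called 0% of tested genes (smallest adjusted p 0.102), with 302 genes at an unadjusted p under 0.05. With 2 residual degrees of freedom in the fit, a p that misses the threshold does not show that embryos had the same level, and Rspo3 and Tcf7l1 in particular spanned wide ranges between embryos within the posterior libraries.

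By the relative depths above, depth and domain ran together in embryos A and B, where the posterior library was deeper by 2.20 to 1 and by 2.82 to 1.41. For embryo B this is uncertain. The direct comparison of anterior B with posterior B lay outside the solution behind these depths and gave an offset of -0.005 in log2, near equal depth. The relative depths of embryo C were nearly level, 1.42 (anterior) and 1.55 (posterior). In that embryo Wnt3, Rspo3, Sp5, Axin2 and Lef1 were higher in the posterior library by 5.23, 6.67, 4.91, 3.31 and 4.11 in log2(FPKM + 1). The numbers of genes above 0 in these libraries were 9335 and 10260, and T contradicts the labels in this embryo. The part of depth in the members' differences was not tested.

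Markers of the cell types that a piece could hold were read beside the members. A bulk level that differs between pieces can come from fewer cells of a type or from less RNA per cell, and the 2 cannot be told apart here. Primitive streak and mesoderm markers (10 of 11 listed were in the table) had sums of 0.355, 12.3 and 45.2 FPKM in the anterior pieces of embryos A, B and C. Their posterior pieces had 159, 208 and 192 FPKM, so these sums ran with the ligand, agonist and target members. In anterior C, T alone gave 42.5 FPKM of that sum, and Mixl1, Mesp1, Evx1, Snai1, Fgf8, Lhx1 and Gsc were listed at 0. Each anterior library listed the streak homeobox gene Mixl1 at 0, and its posterior levels were 5.64, 6.99 and 4.97 in log2(FPKM + 1) for embryos A, B and C. In embryo C it ran with the labels, unlike T, as did Eomes, Mesp1, Evx1, Snai1, Fgf8, Lhx1 and Cdh2. Eomes measured 1.37 FPKM in anterior C and 12.2 FPKM in posterior C, and Fgf8 measured 0 and 57.9 FPKM. Gsc was listed at 0 in both pieces of embryo C.

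Epiblast markers (12 of 12 in the table) summed to 219, 304 and 495 FPKM in the anterior and 689, 471 and 569 FPKM in the posterior libraries. Tdgf1 and Dppa4 were listed at 0 in all anterior libraries. Pou5f1, Sox2, Nanog, Utf1 and Cdh1 were also higher in the posterior library of every embryo. Epcam was higher in the anterior library of every embryo, Otx2, Pou3f1 and Dnmt3b in that of embryo C, and Fgf5 in that of embryo B. Visceral endoderm markers (14 of 16 in the table) had sums of 1278, 1319 and 136 FPKM in the anterior pieces of embryos A, B and C and of 929, 3624 and 814 FPKM in their posterior pieces. Of these 14, anterior A had 12 above 0, anterior B had 13 and anterior C had 5, and in anterior C Ttr, Rbp4, Apoa1, Apom, Amn, Cubn, Hnf4a, Gata4 and Sox17 were listed at 0. Parietal endoderm and XEN markers (12 of 12) summed to 1144.5, 1731 and 375 FPKM in the anterior and to 441, 353 and 808 FPKM in the posterior libraries. Both endoderm lists thus ranged over overlapping sums in the 2 domains, and embryo C ran opposite to embryo A on each. A single gene, Spink3, made up most of every posterior visceral endoderm sum. It measured 753 (A), 3276 (B) and 634 (C) FPKM there, against anterior values of 486, 304 and 11.1 FPKM. The high visceral endoderm sum of posterior B therefore reflects Spink3 more than the list as a whole. Trophoblast markers (12 of 14 in the table) summed to 331, 448 and 306 FPKM in the anterior libraries. Their posterior sums were 319, 351 and 673 FPKM. Elf5 and Esrrb were listed at 0 in all anterior libraries, and Elf5 also in posterior C. Esrrb, Tfap2c and Eomes were higher in the posterior library of every embryo. Gata3 and Hand1 were higher in the anterior library of every embryo, Hand1 in embryo C only slightly (1.96 against 1.92 FPKM). Anterior visceral endoderm markers (5 of 6 in the table) gave sums of 4.77, 46.7 and 156 FPKM in the anterior and of 120, 85.1 and 58.9 FPKM in the posterior pieces. In anterior C that sum was Otx2 alone, a gene also on the epiblast list.

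Relative to the median gene of each library, the mean of the 6 ligand, agonist and target genes was -1.58, -2.04 and -1.54 in the anterior pieces of embryos A, B and C, against 1.37, 1.20 and 1.95 in their posterior pieces, in log2. Visceral endoderm markers stood at 1.75, 1.34 and -1.76 in the anterior and at -0.03, 1.01 and -0.16 in the posterior libraries on the same scale. The mean of the visceral endoderm list was thus high in anterior A and B and low in anterior C. Its member Lrp2 went the other way, at 71.2, 90.2 and 107 FPKM in anterior A, B and C, and made up most of the anterior C sum. The anterior visceral endoderm list was low in each of these libraries, at -1.74, -1.36 and -1.40. Epiblast markers stood at -0.66, -0.69 and 1.03 in the anterior and at 1.83, 1.11 and 1.25 in the posterior libraries, so anterior C was close to the posterior libraries on that list. The part of the epiblast, streak and endoderm markers in the members' differences was not tested.

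**Figure D3:**
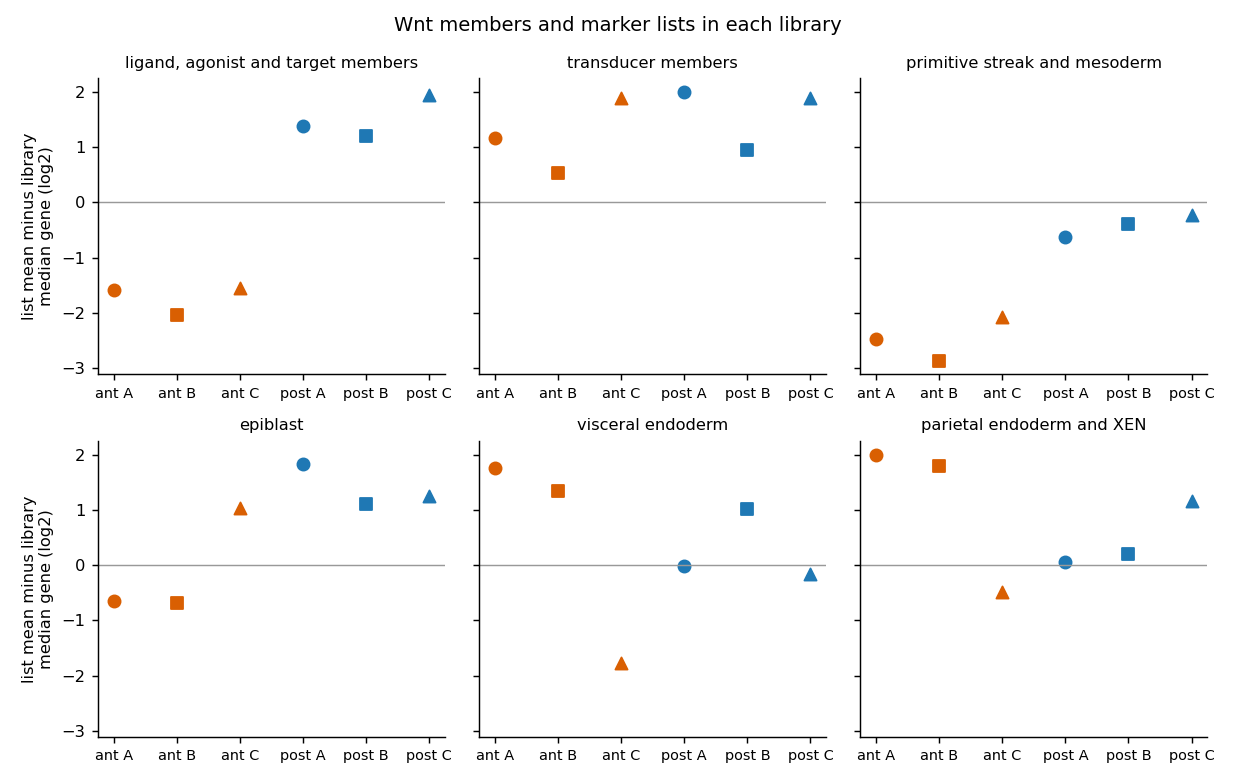
Mean log2(FPKM + 1) of each gene list minus that of the median gene of the library (vertical axis, log2) in the 3 anterior (orange) and 3 posterior (blue) libraries, with circles for embryo A, squares for B and triangles for C. The ligand, agonist and target genes lie at -2.04 to -1.54 in the anterior and 1.20 to 1.95 in the posterior libraries, the transducers overlap, and visceral endoderm markers reach 1.75 in anterior A and -1.76 in anterior C.

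The rest of the pathway was read from a list of 114 genes by role, of which 83 were in the table and 66 were tested. Of the 66, 43 had the higher mean in the posterior and 23 in the anterior libraries, with a median difference of 0.39 in log2(FPKM + 1) against 0.43 for all tested genes. Every posterior value was above every anterior one in 12 genes (18.2%, against 12.3% of all tested genes) and below in 1 (1.52%, against 3.77%). After quantile normalization those shares were 13.6% and 10.6%, against 7.49% and 8.22% of all tested genes, and after median centring 10.6% and 7.58%, against 7.14% and 7.9%. Without embryo C they were 33.3% and 12.1%, against 31.1% and 14% of all tested genes. No gene of the list passed in either direction with limma over all genes (smallest adjusted p 0.520).

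Among 7 tested ligands and agonists 2 lay above without overlap (28.6%, against 12.3% of all tested genes), and the median difference was -0.45. Wnt8a, a ligand of the early streak, stood at 0 in the anterior libraries, and its posterior values were 12.3, 4.39 and 24.1 FPKM in embryos A, B and C (limma adjusted p 0.520). Wnt5a, a ligand best known for signalling that does not pass through beta-catenin, measured 0.384, 0 and 0.134 FPKM in the anterior and 2.10, 4.15 and 24.2 FPKM in the posterior libraries (adjusted p 0.594), and its groups overlapped after quantile normalization. Wnt4 pointed the other way, at 11.7, 7.70 and 4.32 FPKM against 6.82, 2.05 and 3.60 FPKM (adjusted p 0.824), with overlapping groups. Those groups of Wnt4 no longer overlapped after quantile normalization or median centring. Wnt7b was listed at 0 in 3 of the 6 libraries and had an adjusted p of 0.844. Wnt8a and Rspo3 thus showed the same layout as each other, listed at 0 in each anterior library and with the highest level in posterior C.

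Of 10 tested receptors, 1 lay above without overlap (10%, against 12.3% of all tested genes). Fzd10, a Frizzled receptor, had values in embryos A, B and C of 4.14, 1.04 and 0.085 FPKM (anterior) and 53.5, 9.87 and 20.97 FPKM (posterior) (difference 3.39 ± 0.97, SE, limma adjusted p 0.523). Fzd7 and Ryk had posterior minus anterior differences of -0.67 ± 0.83 and -0.86 ± 0.83 (SE), and Fzd2 one of 1.02 ± 0.99. None of these 3 exceeded its error by much, and all 3 overlapped between the groups, although Fzd7 and Ryk no longer overlapped after quantile normalization or median centring. Lgr4, a receptor for the R-spondins, was abundant in all libraries, from 6.83 to 8.93 in log2(FPKM + 1). Its anterior values, where Rspo3 was listed at 0, lay inside the range of its posterior values.

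Among 9 tested inhibitors at the cell surface the median difference was 0.004, and the genes pointed both ways. Znrf3, a ubiquitin ligase that removes Wnt receptors and that the R-spondins block, measured 10.5, 26.4 and 32.7 FPKM in the anterior and 186, 67.4 and 40.9 FPKM in the posterior libraries (difference 1.89 ± 0.87, SE, adjusted p 0.617). Its groups overlapped after median centring. The secreted inhibitors Sfrp5 and Frzb and the receptor-retaining protein Shisa2 had means higher in the anterior libraries. Sfrp5 had values in embryos A, B and C of 14.997, 6.67 and 0.560 FPKM (anterior) and 0.182, 2.62 and 0 FPKM (posterior). Frzb measured 1.12, 19.9 and 17.9 FPKM against 2.05, 0.309 and 2.16 FPKM, and Shisa2 was at 0, 10.7 and 52.5 FPKM against 0.315, 1.63 and 0 FPKM. Adjusted p-values of these 3 were 0.647, 0.648 and 0.631, and the high anterior libraries were A and B for Sfrp5 but B and C for Frzb and Shisa2. The visceral endoderm list, of which none of these 3 was a member, was high in anterior A and B and low in C. The groups of Sfrp5, Frzb and Shisa2 overlapped. After quantile normalization those of Sfrp5 and Frzb no longer did, and after median centring those of Frzb.

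Of 19 tested cytoplasmic transducers 1 lay above and 1 below without overlap (5.26% each, against 12.3% and 3.77% of all tested genes). Their median difference was 0.36. Cby1, an antagonist that binds beta-catenin, lay above, at 0, 0.263 and 0 FPKM in the anterior and 23.7, 14.7 and 40.7 FPKM in the posterior libraries (difference 4.55 ± 0.98, SE, adjusted p 0.520). Csnk1e, a casein kinase of the pathway, lay below, at 18.7, 20.1 and 56.8 FPKM against 9.78, 3.71 and 9.68 FPKM (adjusted p 0.620). Axin1, the constitutive counterpart of Axin2, had values in embryos A, B and C of 0.098, 13.5 and 0 FPKM (anterior) and 9.34, 7.12 and 18.8 FPKM (posterior) (adjusted p 0.640). Unlike Axin2, it had an anterior value, in embryo B, inside the posterior range. Csnk1g2 differed by 1.52 ± 1.14 (SE), with overlapping groups.

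Of 13 tested nuclear factors 4 lay above without overlap (30.8%, against 12.3% of all tested genes), and the median difference was 0.64. Tcf7, a DNA-binding partner of beta-catenin related to Lef1, was at 0, 1.18 and 0.117 FPKM in the anterior and 5.39, 8.67 and 1.71 FPKM in the posterior libraries (adjusted p 0.617). The corepressors Tle3 and Tle4 and the corepressor Ctbp2 were the other 3, with differences of 1.57 ± 0.80, 1.94 ± 0.97 and 1.17 ± 0.74 (SE) and adjusted p-values of 0.637, 0.632 and 0.671. Median centring made all 3 overlap, and quantile normalization made Tle4 and Ctbp2 overlap. Tcf7 and Lef1 therefore shared a layout in which every posterior value was higher, under each of the 3 scalings, while Tcf7l1 did not have it. Tcf7l2, of the same family, did not have it in the unchanged data either (named after its values were seen). It measured 104, 132 and 46.5 FPKM in the anterior and 75.8, 74.2 and 117 FPKM in the posterior libraries (difference 0.016).

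Of 8 tested further targets 3 lay above without overlap (37.5%, against 12.3% of all tested genes), and the median difference was 1.05. They were Fgf8, a growth factor of the streak (0, 3.90 and 0 FPKM in the anterior, 43.3, 5.10 and 57.9 FPKM in the posterior libraries, adjusted p 0.551), the receptor gene Tnfrsf19 (0, 1.94 and 0.124 against 14.0, 14.9 and 34.5 FPKM, adjusted p 0.520) and Evx1, a homeobox gene of the streak (0.127, 0.090 and 0 against 8.08, 15.2 and 0.649 FPKM, adjusted p 0.603). The groups of Evx1 overlapped after median centring. Cd44 differed by 0.96 ± 0.80 (SE, adjusted p 0.739) with overlap, and Lgr5 lay between 1.83 and 2.87 in log2(FPKM + 1) in all 6 libraries. Fgf8, Evx1 and T are also members of the streak marker list. Notum and Nkd1, feedback inhibitors that Wnt signalling induces, were too low to be tested, and each had posterior values above its anterior ones (named after their values were seen).

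**Figure D4:**
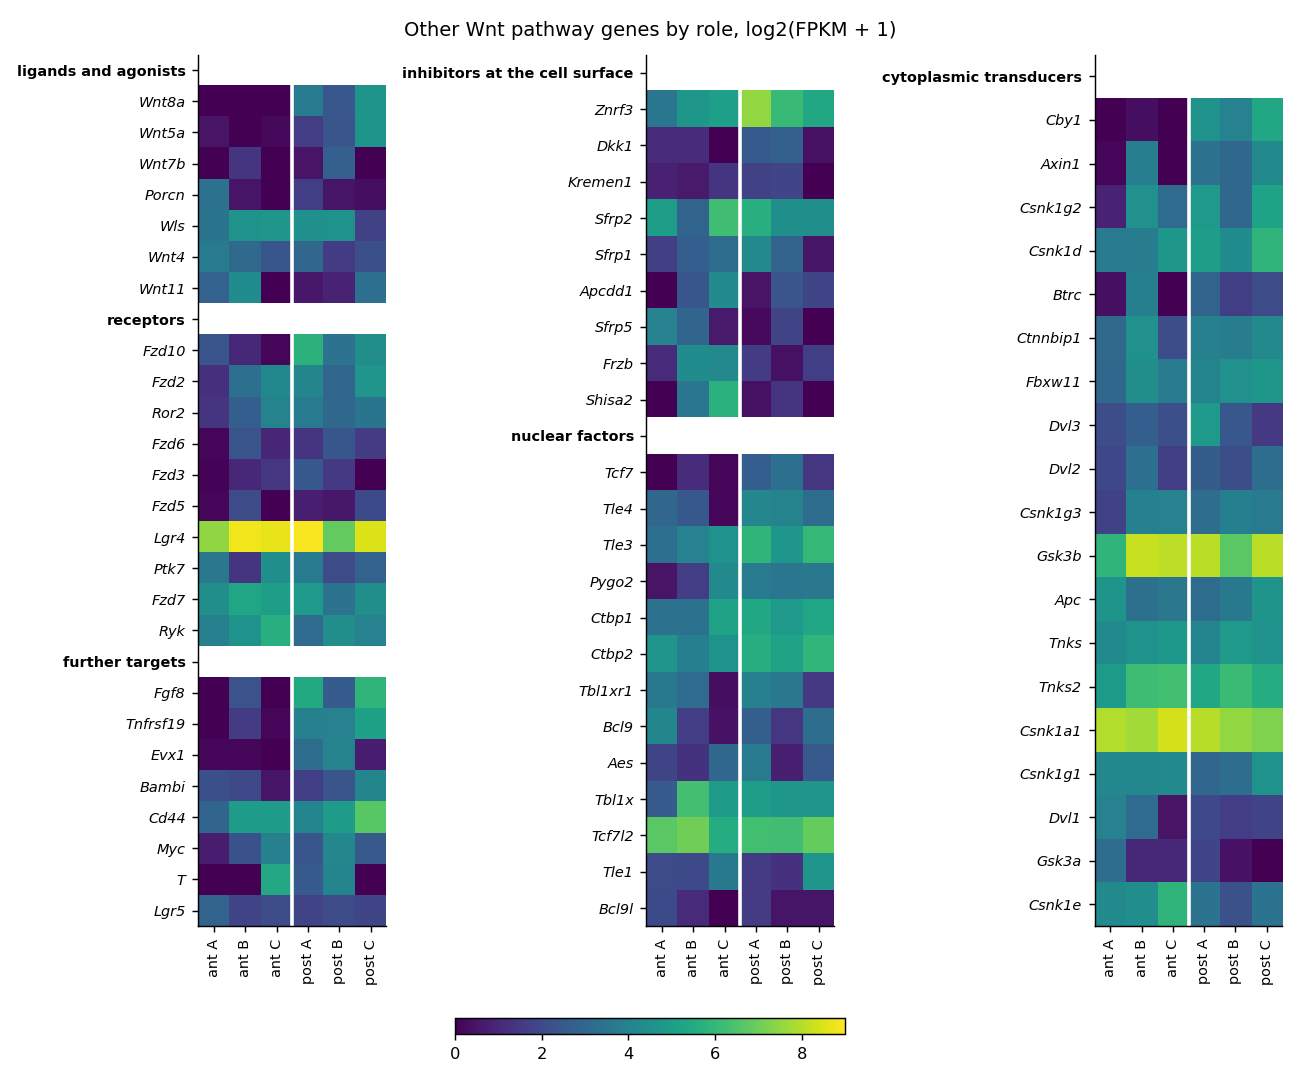
Heat map of log2(FPKM + 1), from 0 (dark) to 9 (yellow), for the 66 other Wnt pathway genes tested (rows, grouped by role and sorted within a role by their difference) in the 3 anterior and 3 posterior libraries (columns, divided by a white line). Cby1, Fzd10 and Tnfrsf19 are darker in every anterior than in every posterior library, Fgf8 has nearly the same shade in both pieces of embryo B (2.29 and 2.61), and Lgr4 is light in all 6.

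Genes whose levels over the 6 libraries were most like the members were found by Pearson r with a mean profile, as a ranking with no test, since 2 domains and shared library depth shape every profile. The mean profile of the 6 ligand, agonist and target genes was most like those of Ptpmt1 (r = 0.999), Arfgap2 (0.998), 1190002H23Rik (0.997), Cby1 (0.997) and Ephx2 (0.996), and 109 tested genes had r over 0.95. Ptpmt1, a mitochondrial phosphatase gene, had anterior values of 3.15, 3.27 and 3.31 and posterior values of 5.02, 4.89 and 5.38 in log2(FPKM + 1), so its step between domains was smaller than that of the Wnt genes. Of the 5, only Cby1 is on the wider Wnt list. The mean profile of the 3 transducers was most like those of Tmem106c (r = 0.998), Thop1 (0.987), Cdc42ep5 (0.986), Zfp710 (0.973) and Ect2 (0.966), and 18 genes had r over 0.95. Those 5 genes were high in posterior A, posterior C and, less so, anterior C, the libraries in which Tcf7l1 was high.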

How the data were processed

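RNA-seq libraries from 3 anterior and 3 posterior pieces were analysed from 1 deposited table, whose values are on the scale log2(FPKM + 1). That scale is not stated in the labels and was read from the values: raising 2 to each entry above 3 and subtracting 1 left no more than 6 significant digits for 99.1% to 99.5% of such entries. Reads were assigned with HTSeq-count on an Ensembl annotation, per the labels' protocols, and build mm10, Cufflinks 2.0.2 and TopHat2 2.0.4 appear in the submitters' processing notes. The sources used here do not give the tool behind the deposited values.

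The 9 members, the wider Wnt list and the marker lists were chosen with earlier results of these data known. The log2 values were used unchanged (pseudocount 1), and 10914 of 12826 genes had a mean of at least 1 FPKM. Posterior against anterior and the F test among embryos were fitted with limma 3.58.1 in R 4.3.3 with a trend and the embryo as a block, two-sided, with Benjamini-Hochberg adjustment over all tested genes and a threshold of 0.05. The fit had 2 residual and 7.5 prior degrees of freedom. It was also run on simulated independent normal values with no embryo effect. That run checked the code and does not show how many true differences the fit would find in these libraries. Both pieces of an embryo come from 1 structure, which gives the pairing. Their deviations from the group means correlated at -0.07, 0.04 and -0.03 in embryos A, B and C. On the log2(FPKM + 1) scale a difference of a low gene is understated.

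Named genes were the members, T, Mixl1, up to 4 genes per role of the wider list by smallest unadjusted p, and the 5 genes most like each of 2 mean profiles. Genes named only as examples of a constant level, as listed at 0, or by exonic overlap were chosen after their values were seen. Relative depth came from steps of genes under 1 FPKM (tolerance 0.01 in log2), where 12 of 15 library pairs fitted 1 solution within 0.05. Anterior B with posterior B was not among the pairs that fitted. Alternatives were quantile normalization, library median centring, a pseudocount of 0.1, other filters, no block and leaving out libraries. Tables and sequences were handled in Python 3.11.15, and promoter sequences came from RefSeq.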

Additional observations from a re-analysis of the deposited data

Results flagged for a closer look

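In 3 genes the posterior minus anterior difference pointed in opposite directions in different embryos. Whether the posterior minus anterior difference varies between embryos was not tested, since each embryo gave 1 library per domain. Ctnnb1 was higher in the posterior library by 1.04 in embryo A and 0.87 in embryo B, and the difference was -1.55 in embryo C, in log2(FPKM + 1). For Tcf7l1 the differences were 3.59, -0.044 and -1.04 across embryos A, B and C. For T, the reporter gene, they were 2.59, 4.05 and -5.44. Embryo C is the one with the negative difference in all 3 genes, while Wnt3, Rspo3, Sp5, Axin2, Lef1 and Lrp6 were higher in its posterior library.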

How the results depend on the processing

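No gene passed between the domains under any alternative, including the paired design taken out (no replicate block: 0 calls, with 912 and 119 genes higher in the posterior and anterior libraries at an unadjusted p under 0.05, against 790 and 86 with it). The replicate block changed no call. Among embryos the count of 0 became 3 after quantile normalization, 3 after median centring and 3 with no filter on low values, and 0 to 4 when libraries were left out (4 without embryo A). The 12 other Wnt genes above without overlap became 7 after median centring, and ranged from 12 to 22 when libraries were left out (22 of 66, or 33.3%, without embryo B and without embryo C, against 29.4% and 31.1% of all tested genes, so the excess over all genes was smaller than with all libraries). The 1 below became 7 after quantile normalization and 5 after centring, and 3 to 14 with libraries left out (14 without embryo A, 8 without C, 9 without anterior A alone, where 13.2%, 14% and 8.69% of all tested genes lay below, against 3.77%). The transducer median of 0.84 ranged from -0.34 (without embryo A) to 1.28. Ctnnb1 turned to -0.20 after quantile normalization and -0.37 after centring, and ranged from -0.34 without embryo A, over -0.26 without B and -0.20 without anterior A, to 0.96 without C. Tcf7l1 ranged from -0.54 without embryo A to 1.77 without C. The causes were not tested. Of 63 alternative values of the members' differences 53 moved by less than 1 SD between embryos in the same direction, and 6 turned. Leaving out 1 of 3 embryos cannot shift a mean difference by 1 SD between embryos. For those settings the count could only show a turn of sign, and it is no measure of stability there. Absolute depth is unknown, so listed zeros carry no detection limit.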
